A study of Mus musculus with 9 samples.

Results

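Transcript levels of 51 Wnt pathway genes were described in mouse neural stem cells with deleted (del/del) or floxed (fl/fl) Smchd1. Smchd1 is an SMC-like protein of chromatin known for its part in X inactivation and in silencing imprinted and clustered genes. The genes were taken by symbol from the 25965 genes of the expression table. They comprise the 19 Wnt ligands, the 10 Frizzled receptors, 5 co-receptors and alternative receptors (Lrp5, Lrp6, Ror1, Ror2 and Ryk), 9 secreted inhibitors (the Sfrp and Dkk families and Wif1), 4 intracellular members (Ctnnb1, Axin1, Axin2 and Nkd1) and the 4 TCF/LEF transcription factors. The rule itself uses symbols and no expression value, but it was written with earlier results of these data known.

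The Smchd1 del/del group held 4 libraries, from female lines 1, 2 and 3 and male line 5. The Smchd1 fl/fl group held 5 libraries, from the same 4 lines and male line 7. All lines were derived from E14.5 embryos of C57BL/6 mice carrying floxed Smchd1 alleles. Part of each paired line received the MSCV-Cre-puro retrovirus, was placed under puromycin from 24 h and was harvested on day 7. The fl/fl cells were the untransduced part. The del/del cultures therefore also differ from fl/fl cultures by retroviral transduction and puromycin selection, and Smchd1 loss cannot be told apart from these treatments. The series' design text names female lines and a del/fl control, whereas the sample labels give both sexes and fl/fl, and the sample labels were followed here. Embryos behind separate lines are not described further in the labels, so the p-values measure the spread between these libraries.

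Wnt ligands are secreted glycoproteins that bind Frizzled receptors together with Lrp5 or Lrp6. In the canonical branch this stops a complex built on Axin from degrading β-catenin, which then enters the nucleus and acts with TCF/LEF factors on target genes. Other branches run through Ror1, Ror2 and Ryk or through planar cell polarity proteins. In the embryonic brain Wnt signals are known to regulate progenitor proliferation, patterning and neuronal differentiation.

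Levels are log2 RPM (reads scaled by the library total), as deposited by the authors. Library totals were 74.0 to 105.1 M reads in del/del and 24.1 to 116.6 M in fl/fl. Female fl/fl 2 stood apart: it had the 24.1 M reads, 53.3% of them lay in listed genes against 34.8 to 44.4% in the other 8 libraries, and it was the highest library for 48.9% of the 14044 genes kept for testing. For some genes whose direction or size turned on it, the value without it is also given. Smchd1 was at 5.04 to 5.36 in del/del and 6.16 to 6.81 in fl/fl, a log2 fold change of -1.19 (SE 0.148, limma adjusted p = 0.00751, by Benjamini-Hochberg (BH)). Smchd1 reads thus remained in del/del, at 36.8 RPM over the group against 80.1 RPM over fl/fl (fold 0.44). How complete the deletion was, and how much protein remained, was not tested. The neural stem cell markers Sox2 (5.40 to 5.82 in del/del and 5.28 to 6.46 in fl/fl) and Nes (7.21 to 7.71 and 7.25 to 8.45) were present, and all 14 markers of that list were kept. The microglia and leukocyte markers summed to 106 to 118 RPM in del/del and 93.7 to 126 RPM in fl/fl. Most of it came from the Cx3cr1 row (6.56 to 6.73 log2 RPM in del/del and 6.38 to 6.85 in fl/fl). That row runs on chromosome 9 from 119901616 to 120068283, and its overlap with other genes was not checked. Csf1r, of the same list, was also kept, at 2.37 to 2.57 log2 RPM in del/del and 2.36 to 2.68 in fl/fl. It had 434 to 626 reads per del/del library and 152 to 738 per fl/fl library. Ptprc had 2 to 5 reads per del/del library and 0 to 7 per fl/fl library. The endothelial markers summed to 5.53 to 9.94 RPM in del/del and 3.28 to 6.86 RPM in fl/fl, with Cdh5 at 0 to 4 and 0 to 8 reads. Of their 3 kept markers 0 passed in limma, with estimates of 1.84 for Flt1, 0.61 for Kdr and -0.13 for the remaining marker. With the line block 1 passed (Flt1, 2.00), and the remaining marker was at -0.06. Of the astrocyte markers 3 of 10 were higher in del/del, against 1.45% of all kept genes, and 3 of 10 estimates were below 0. Gfap was among the higher ones (log2 fold change 2.07, SE 0.346, limma BH-adjusted p = 0.0194). The list's summed level overlapped (380.2 to 484 RPM in del/del and 313 to 568 RPM in fl/fl). Of the neuron markers 2 of 9 were higher, against 1.45% of all kept genes, while 5 of 9 estimates were below 0 (median -0.18). Their summed levels were 147 to 155 RPM in del/del and 108 to 153 RPM in fl/fl. The fibroblast and mesenchymal markers summed to 151 to 189 RPM in del/del and 94.3 to 142 RPM in fl/fl, without overlap. Of 4 kept markers 0 were called, and all 4 estimates were above 0 (median 0.43). With the line block 0 were called and 4 had an unadjusted limma p under 0.05, against 14% of all kept genes. Col1a2 and Col1a1, which were not kept, had 671 and 607 reads in female del/del 2. The other del/del libraries had 67 to 78 and 48 to 67. The oligodendrocyte lineage markers summed to 246 to 305 RPM in del/del and 218 to 411 RPM in fl/fl. The choroid plexus and ependymal markers summed to 15.2 to 18.3 RPM and 10.8 to 16.1 RPM. Their 1 kept marker, Foxj1, was higher in del/del in all 4 lines (log2 fold change 0.30, limma BH-adjusted p = 0.561). The part of these cell types in the results below was not tested. Fewer cells of a type and less RNA per cell cannot be told apart in such bulk libraries.

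Of the 51 genes, 35 passed the filter on low levels (at or above 0 log2 RPM in 3 or more libraries) and 16 did not. Ligands made up 11 of the 16 and secreted inhibitors the other 5. None of the 35 genes passed an adjusted p of 0.05 between del/del and fl/fl in limma, in either direction, whereas 1.55% of all kept genes did (1.45% higher and 0.0997% lower in del/del). At an unadjusted p under 0.05 there were 4 of 35 (Fzd5, Fzd6, Tcf7l1 and Axin2), against 9.84% of all kept genes. With voom on the recovered reads 0 passed and 3 had an unadjusted p under 0.05, against 1.28% and 11.4% of all kept genes. When the line entered the model as a block, 0 of 35 passed and 9 had an unadjusted p under 0.05, against 3.99% and 14% of all kept genes. Within the 6 libraries whose description begins with an RNA- prefix, 0 of 35 passed and 8 had an unadjusted p under 0.05, against 1.28% and 11.8% of all kept genes.

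The estimates lay close to 0 for most of the 35 genes. Their median log2 fold change was 0.04, with 23 above 0 and 12 below, and the median of all kept genes was -0.004, with 48.9% above 0. Without female fl/fl 2, 22 of 35 were above 0 (62.9%) with a median of 0.06, against 73.7% and a median of 0.08 over all kept genes, so which of the medians is higher depends on that library. The 95% interval of the change lay within 1 log2 unit of 0 for 30 genes and within 0.5 log2 units for 18. It excluded 0 for 4. The narrowest interval was that of Fzd7 (-0.18 to 0.23) and the widest that of Wnt2 (-0.01 to 1.68). Values of del/del and fl/fl did not overlap for 1 of 35 genes, Fzd5, or 2.86% against 6.52% of all kept genes. In all 4 paired lines del/del lay above fl/fl for 8 genes (Fzd5, Fzd6, Fzd9, Fzd10, Wnt4, Wnt7b, Sfrp1 and Axin2) and below it for 1 (Tcf7l1), together 25.7% against 22.0% of all kept genes. Female del/del 1 was the highest of the 9 libraries for 15 of the 35 genes (42.9%, against 22.5% of all kept genes), and female fl/fl 2 for 8 (22.9%, against 48.9%).

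**Figure D1:**
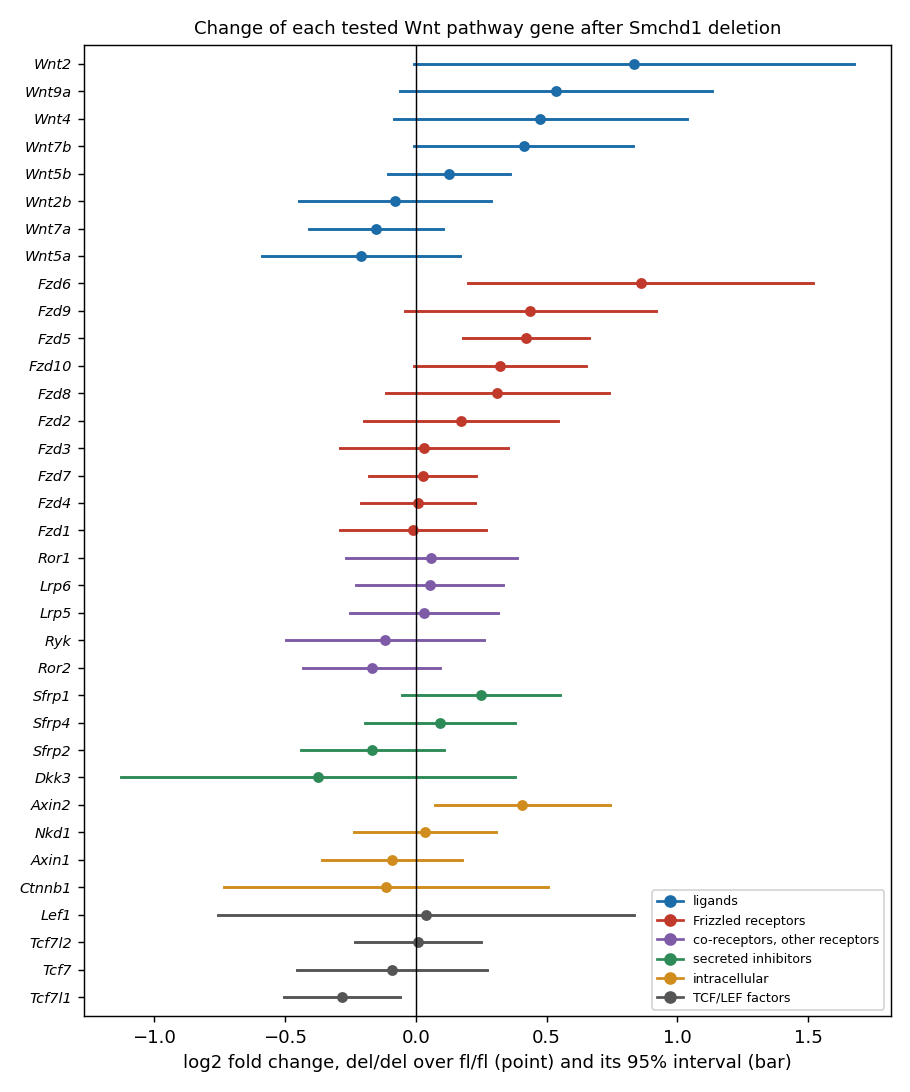
Estimated log2 fold change of each of the 35 kept genes (del/del minus fl/fl, both sexes, limma), grouped by role, with points for estimates and bars for 95% confidence intervals. Intervals of Fzd5, Fzd6 and Axin2 lie above 0 and that of Tcf7l1 below 0, and the other 31 include 0.

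Among the Frizzled receptors, the membrane proteins that bind Wnt ligands, all 10 genes were kept and 9 of 10 estimates were above 0. Their median log2 fold change was 0.24, and 0 of 10 passed. Across the alternatives that tested all 10 genes, 7 to 10 estimates were above 0 (8 of the 9 tested with a stricter filter), and the median was 0.10 with quantile normalization.

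Fzd5, a receptor with known roles in eye and vascular development, lies on chromosome 1 from 64730560 to 64737750 (mm10). Its log2 RPM was 4.32, 4.10 and 4.06 in female del/del lines 1, 2 and 3 and 4.16 in male del/del line 5. In fl/fl it was 3.93, 3.67 and 3.68 in female lines 1, 2 and 3 and 3.56 and 3.81 in male lines 5 and 7. The lowest del/del library lay above the highest fl/fl library, and the difference within lines was 0.39, 0.43, 0.38 and 0.59 in lines 1, 2, 3 and 5. The log2 fold change was 0.42 (SE 0.108, 95% interval 0.18 to 0.66, fold 1.34, limma BH-adjusted p = 0.109). Blocking by line gave 0.45 (SE 0.102, limma BH-adjusted p = 0.0507), the smallest adjusted p of any of the 35 genes under the 20 settings run. Over those settings the adjusted p in limma ran from 0.0507 to 0.534 for Fzd5, 0.0651 to 0.837 for Fzd6, 0.0651 to 0.978 for Fzd9, 0.0609 to 0.898 for Wnt7b, 0.0902 to 0.839 for Axin2 and 0.121 to 0.951 for Tcf7l1.

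The Fzd5 promoter is shown because this was the gene whose groups did not overlap. The sequence is the 250 bases before the gene's start in RefSeq (GRCm38.p6), chr1:64737751-64738000 on the minus strand, with CG dinucleotides in capitals.
Fzd5: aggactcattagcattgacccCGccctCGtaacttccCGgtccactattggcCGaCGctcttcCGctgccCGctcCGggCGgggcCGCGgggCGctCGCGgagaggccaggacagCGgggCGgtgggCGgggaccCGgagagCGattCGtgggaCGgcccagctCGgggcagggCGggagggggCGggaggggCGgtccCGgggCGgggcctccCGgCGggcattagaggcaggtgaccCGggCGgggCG
It holds 32 CG dinucleotides, at percentile 95.9 of 27025 RefSeq promoters of the same length, with ties given their average rank.

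Fzd6, which acts with planar cell polarity proteins in hair and inner ear patterning in mice, lies on chromosome 15 from 39006280 to 39038186. It was the lowest Frizzled gene by level per exon length and had the largest estimate of the 35 genes. Its log2 RPM was 1.08, 0.85 and 0.27 in female del/del lines 1, 2 and 3 and 0.77 in male del/del line 5. The fl/fl values were -0.21, 0.54 and -0.61 in female lines 1, 2 and 3 and -0.25 and -0.07 in male lines 5 and 7. Female fl/fl 2 alone overlapped the del/del range. These levels rest on 119 to 190 reads per del/del library and 35 to 110 per fl/fl library. The log2 fold change was 0.86 (SE 0.296, 95% interval 0.20 to 1.52, fold 1.82, limma BH-adjusted p = 0.281), 0.88 in the fit blocked by line (adjusted p = 0.0651) and 1.07 without female fl/fl 2 (adjusted p = 0.113).

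Fzd9 and Fzd10 were higher in del/del within each of the 4 lines, and neither passed. Fzd9, a gene deleted in Williams syndrome in humans, had 3.72, 3.73 and 4.08 in female del/del lines and 3.92 in male del/del line 5, against 3.59, 2.93 and 3.58 in female fl/fl lines and 3.07 and 4.06 in male fl/fl lines 5 and 7. Its groups overlapped through male fl/fl 7, the line without a del/del partner. The Fzd9 log2 fold change was 0.44 (SE 0.215, limma BH-adjusted p = 0.587) and 0.57 with the line as a block (adjusted p = 0.0651). In every fit blocked by line, male fl/fl 7 adds nothing to the estimate, as its line has no del/del library. The median log2 fold change of the 35 genes was 0.05 both with the block and with male fl/fl 7 left out. Fzd10 spanned 3.75 to 4.17 in del/del and 3.32 to 4.01 in fl/fl, with a log2 fold change of 0.32 (SE 0.148, limma BH-adjusted p = 0.528). Its groups overlapped.

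Fzd3 and Fzd1 had the highest levels per exon length of the family. Fzd3, a receptor needed for axon guidance and neural tube closure in mice, averaged 10.4 RPM per kb of exon in del/del and 10.1 in fl/fl. Fzd1 averaged 9.69 and 9.62 RPM per kb, and the ranges of Fzd3 and Fzd1 overlapped. Fzd9 (6.37 in del/del and 4.94 in fl/fl), Fzd10 (5.41 and 4.41) and Fzd7 (4.09 and 4.00) followed with overlapping ranges. Fzd5 (2.59 and 1.93), Fzd4, Fzd2 and Fzd8 came next, and Fzd6 was last at 0.37 and 0.21 RPM per kb. Per kb of the gene's whole span instead of its exons, Fzd3 was the 9th of the family and Fzd1 led it.

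The log2 fold change was 0.03 for Fzd3 (SE 0.145, limma BH-adjusted p = 0.997) and -0.01 for Fzd1 (SE 0.125, limma BH-adjusted p = 0.999). In both genes female fl/fl 2 was the highest fl/fl library, at 5.87 for Fzd3 against 5.25 to 5.32 in the other fl/fl libraries. Without it the Fzd3 change was 0.16 (limma BH-adjusted p = 0.562) and del/del lay above fl/fl in every remaining library, and the Fzd1 change was 0.07. With female fl/fl 2 left out, the groups did not overlap for 11.4% of the 35 genes (Fzd5, Fzd3 and Fzd6 above and Tcf7l1 below) and for 12.3% of all kept genes. The remaining 4 receptors, Fzd2, Fzd4, Fzd7 and Fzd8, had log2 fold changes of 0.01 to 0.31.

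**Figure D2:**
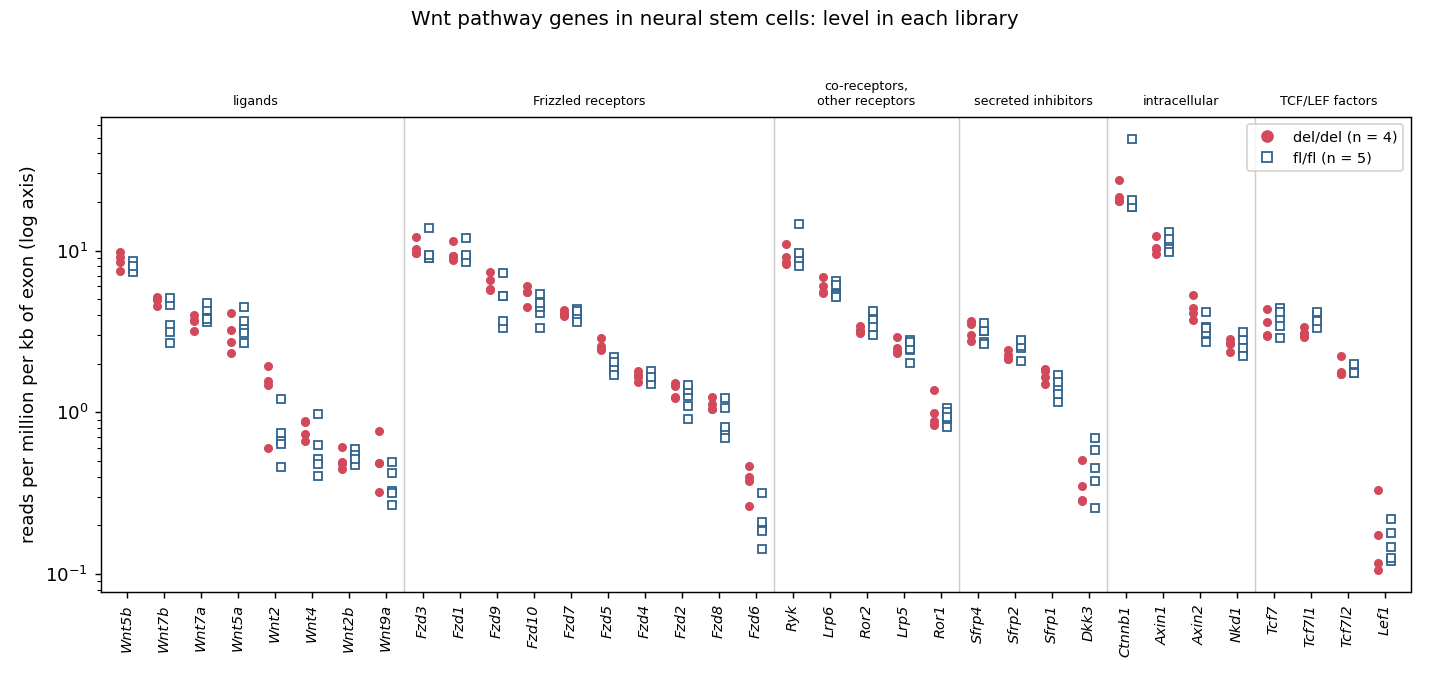
Level of each of the 35 kept genes in every library, in RPM per kb of exon on a log axis, with filled points for the 4 del/del libraries left of open squares for the 5 fl/fl libraries. Ctnnb1 is the highest and Lef1 among the lowest, and Fzd5 is the gene whose 4 del/del points all lie above its 5 fl/fl points.

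The ligands were carried by few genes. Of 19 Wnt genes 8 were kept, and by level per exon length Wnt5b, Wnt7b, Wnt7a and Wnt5a together held 83.1 to 86.5% of the summed ligand level in del/del libraries and 85.2 to 90.2% in fl/fl libraries. Wnt5b, a ligand of the non-canonical branch, averaged 8.77 RPM per kb of exon in del/del and 7.94 in fl/fl. Wnt7b and Wnt7a, ligands known for roles in brain vascularisation and synapse formation, averaged 4.94 and 3.65 RPM per kb in del/del and 3.797 and 4.05 in fl/fl. Wnt5a, which signals through Ror receptors, averaged 3.10 in del/del and 3.45 in fl/fl, and the ranges of Wnt7b, Wnt7a and Wnt5a overlapped. Per kb of the gene's whole span Wnt5b was the 4th ligand and Wnt5a the first. Part of the Wnt5b row (3.77% of its span) overlaps Fbxl14.

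None of the 8 kept ligands passed, 5 had estimates above 0, and the median was 0.27. Wnt7b was 4.54, 4.59 and 4.60 in female del/del lines 1, 2 and 3 and 4.41 in male del/del line 5. The fl/fl levels were 4.02, 3.88 and 4.44 in female lines 1, 2 and 3 and 3.65 and 4.58 in male lines 5 and 7. The del/del libraries lay close together, and the fl/fl libraries ran from below up into their range (SD 0.0859, n = 4, in del/del and 0.390, n = 5, in fl/fl). The Wnt7b log2 fold change was 0.41 (SE 0.188, limma BH-adjusted p = 0.521) and 0.54 with the line as a block (adjusted p = 0.0609). Male fl/fl 7 again held the overlap, together with female fl/fl 3.

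Wnt2, a canonical ligand, was 2.12, 1.81 and 0.45 in female del/del lines and 1.73 in male del/del line 5, against 1.45, 0.58 and 0.52 in female fl/fl lines and 0.75 and 0.04 in male fl/fl lines 5 and 7. Female del/del 3 lay within the fl/fl range and its line showed no increase (-0.07). The Wnt2 log2 fold change was 0.83 (SE 0.377, limma BH-adjusted p = 0.516). Wnt4, known for its role in kidney and gonad development, spanned 1.47 to 1.90 in del/del and 0.77 to 2.03 in fl/fl. It was higher in del/del in all 4 lines (log2 fold change 0.48, SE 0.251, limma BH-adjusted p = 0.653, and 0.65 with the line as a block, adjusted p = 0.0866). Wnt9a had a log2 fold change of 0.54 (SE 0.267, limma BH-adjusted p = 0.597) and lay lower in del/del in line 1 (-0.40). Its level was 0.76 RPM per kb of exon in male del/del 5. The female del/del libraries, at 0.32 to 0.49, lay within the fl/fl range of 0.27 to 0.49. Wnt5b (0.13, SE 0.104, limma BH-adjusted p = 0.967) and the remaining Wnt7a, Wnt5a and Wnt2b had estimates of -0.21 to 0.13.

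**Figure D3:**
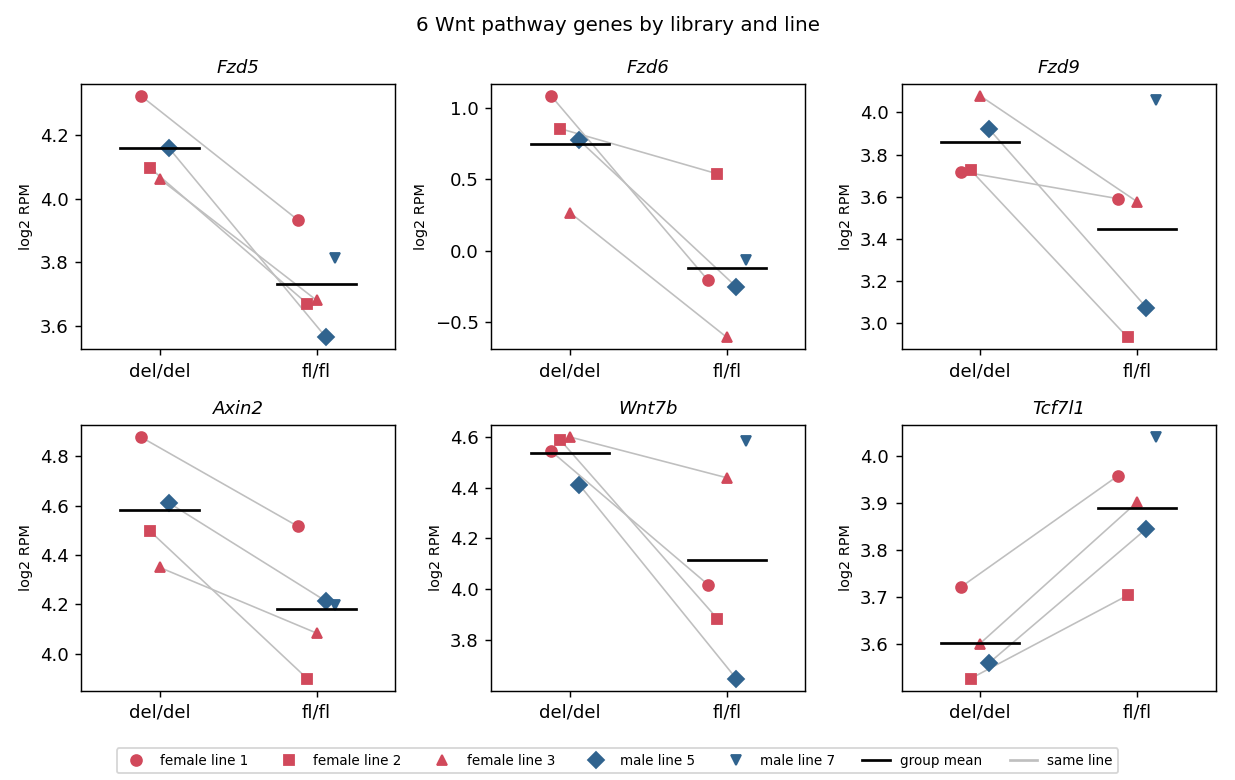
Log2 RPM of Fzd5, Fzd6, Fzd9, Axin2, Wnt7b and Tcf7l1 in each library, del/del left of fl/fl, with symbols for lines, grey lines joining the 4 paired lines and black bars for group means. In each panel the joining lines run one way, because the 6 genes were taken from those that do so. Such genes were 25.7% of the 35 kept genes and 22.0% of all kept genes. Male fl/fl 7, which has no partner, is the highest fl/fl library for Fzd9, Wnt7b and Tcf7l1.

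The other 11 ligands fell below the filter. Wnt6 had 12, 6 and 21 reads in female del/del lines 1, 2 and 3 and 17 in male del/del line 5. In fl/fl it had 10, 0 and 13 in female lines 1, 2 and 3 and 2 and 0 in male lines 5 and 7. The counts were low and overlapped, and without the filter the limma BH-adjusted p was 0.493. Wnt16 had 173 reads over the 4 del/del libraries and 222 over the 5 fl/fl libraries, Wnt3 had 139 and 167, and Wnt11 had 134 and 136. Wnt1, which patterns the midbrain and hindbrain, had 21 reads in del/del and 11 in fl/fl. Wnt8b, Wnt9b, Wnt10a and Wnt10b had 5 to 8 reads over del/del and 2 to 11 over fl/fl. Wnt3a and Wnt8a had 0 reads in del/del and 3 and 4 reads in fl/fl. With 380.0 M reads over del/del, a count of 0 allows up to 0.0079 RPM, 3 counts over the group, which covers counting error only. Without the filter, 0 of all 51 genes passed in limma and 7 had an unadjusted p under 0.05, against 1.23% and 8.78% of the 22321 genes tested that way.

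The co-receptors and alternative receptors showed small estimates, and 0 of 5 passed (median log2 fold change 0.03). By level per exon length Ryk, a receptor-like protein that binds Wnt ligands in axon guidance, averaged 9.26 RPM per kb in del/del and 9.99 in fl/fl. Lrp6, which receives the canonical signal with Frizzled, averaged 5.98 and 5.72 RPM per kb. Lrp6 levels were 6.23 to 6.55 log2 RPM in del/del and 6.15 to 6.48 in fl/fl. The log2 fold change was 0.05 for Lrp6 (SE 0.126, limma BH-adjusted p = 0.997) and -0.12 for Ryk (SE 0.170, limma BH-adjusted p = 0.997), and that of Ryk was 0.04 without female fl/fl 2. Its level of 6.05 in that library stood above the 5.19 to 5.45 of the other fl/fl libraries. Lrp5 and the receptor tyrosine kinases Ror1 and Ror2, which bind Wnt5a, had estimates of -0.17 to 0.06. Without female fl/fl 2 the lowest estimate among the 5 genes was -0.25.

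The intracellular members include β-catenin and the scaffold proteins of its degradation complex, of which Axin2 is a feedback inhibitor that canonical signalling induces in many tissues. Of the 4 genes 0 passed. Axin2 lies on chromosome 11 from 108920349 to 108950783, and 8.89% of its span overlaps Gm11670. Its log2 RPM was 4.88, 4.50 and 4.35 in female del/del lines 1, 2 and 3 and 4.61 in male del/del line 5. The fl/fl values were 4.52, 3.90 and 4.08 in female lines 1, 2 and 3 and 4.21 and 4.20 in male lines 5 and 7. Female fl/fl 1 overlapped the del/del range, while within lines del/del was higher by 0.36, 0.60, 0.27 and 0.40. The log2 fold change was 0.41 (SE 0.150, 95% interval 0.07 to 0.74, fold 1.33, limma BH-adjusted p = 0.338), and 0.41 with the line as a block (SE 0.109, adjusted p = 0.0902). Without female fl/fl 2 the Axin2 change was 0.32.

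The Axin2 promoter is shown because the gene is the pathway's usual transcriptional readout. It is the 250 bases before the gene's start in RefSeq (GRCm38.p6), chr11:108920099-108920348 on the plus strand, with CG dinucleotides in capitals.
Axin2: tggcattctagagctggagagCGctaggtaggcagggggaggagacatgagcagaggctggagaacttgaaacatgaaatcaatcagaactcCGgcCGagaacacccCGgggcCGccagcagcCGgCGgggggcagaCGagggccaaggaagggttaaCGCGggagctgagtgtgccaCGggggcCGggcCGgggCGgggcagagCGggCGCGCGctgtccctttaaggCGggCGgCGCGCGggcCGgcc
It holds 24 CG dinucleotides, at percentile 89.0 of 27025 promoters, with ties given their average rank. RefSeq promoters matched 36 of the 51 genes, whose median was 24 CG dinucleotides against 6 over all promoters. The TCF/LEF word CTTTGAA, the word CTTTGAT, the word CTTTGTA and the word CTTTGTT, which share their first 5 letters and were searched on both strands, occurred in 3 of the 36 (Fzd7, Wnt11 and Dkk1), or 8.33% against 14.9% of all promoters. Neither the Fzd5 nor the Axin2 window holds one of these words, which says only that the letters are not in these windows.

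Ctnnb1, which encodes β-catenin, had the highest level per exon length of all 51 genes, at 22.4 RPM per kb in del/del and 25.3 in fl/fl. Its log2 RPM was 7.16, 6.72 and 6.81 in female del/del lines and 6.72 in male del/del line 5, against 6.66, 7.995 and 6.60 in female fl/fl lines and 6.59 and 6.73 in male fl/fl lines 5 and 7. The value of 7.995 belongs to female fl/fl 2. The log2 fold change was -0.12 (SE 0.278, limma BH-adjusted p = 0.997) and 0.19 without that library (adjusted p = 0.559), so the direction rests on it. Axin1, the constitutive scaffold, had a log2 fold change of -0.09 (SE 0.120, limma BH-adjusted p = 0.997). Nkd1, an inhibitor that binds Dishevelled, was at 0.04. Part of the Ctnnb1 row (5.84% of its span) overlaps 4930593C16Rik and Ulk4.

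Of the 9 secreted inhibitors 4 were kept and 0 passed. Sfrp4 and Sfrp2, soluble Frizzled-related proteins that bind Wnt ligands, had the highest levels per exon length, at 3.24 and 2.23 RPM per kb in del/del and 3.06 and 2.53 in fl/fl. Sfrp4 had a log2 fold change of 0.09 (SE 0.128, limma BH-adjusted p = 0.997) and Sfrp2 one of -0.17 (SE 0.122, limma BH-adjusted p = 0.909). Sfrp1 and Dkk3 had estimates of 0.25 and -0.37, both with intervals that include 0. The Lrp5 and Lrp6 antagonists Dkk1, Dkk2 and Dkk4 had 7, 22 and 0 reads over del/del and 3, 7 and 4 over fl/fl. Sfrp5 had 154 reads in del/del and 111 in fl/fl, and Wif1 had 41 and 30.

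The TCF/LEF factors bind DNA and recruit β-catenin or Groucho repressors. None of the 4 passed. Tcf7l1, which mostly represses target genes in embryonic stem cells, lies on chromosome 6 from 72626378 to 72789254. Its log2 RPM was 3.72, 3.53 and 3.60 in female del/del lines 1, 2 and 3 and 3.56 in male del/del line 5. In fl/fl it was 3.96, 3.70 and 3.90 in female lines 1, 2 and 3 and 3.84 and 4.04 in male lines 5 and 7. Female fl/fl 2, at 3.70, overlapped female del/del 1, at 3.72, and in every line del/del lay lower. The Tcf7l1 log2 fold change was -0.28 (SE 0.10004, 95% interval -0.51 to -0.06, limma BH-adjusted p = 0.307), -0.25 in the fit blocked by line (adjusted p = 0.283) and -0.34 without female fl/fl 2 (adjusted p = 0.121). Gm15401 and Gm15402 overlap 8.78% of its span.

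Tcf7 had a log2 fold change of -0.09 (SE 0.163, limma BH-adjusted p = 0.997), and 22.7% of its span overlaps A630014C17Rik. Tcf7l2 was at 0.01. Lef1, the lowest of the 4 by level per exon length, was 1.55, 0.61 and -0.10 in female del/del lines and 0.03 in male del/del line 5, against 0.09, 0.36 and 0.94 in female fl/fl lines and 0.65 and 0.14 in male fl/fl lines 5 and 7. The lines went in different directions, at 1.46 in line 1 and -1.05 in line 3.

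Without female fl/fl 2 the log2 fold change was 0.29 for Fzd9, 0.34 for Wnt4, -0.12 for Wnt5a (-0.21 with it), 0.04 for Fzd2 (0.17 with it), -0.18 for Dkk3, -0.03 for Axin1 and -0.20 for Tcf7. The estimates of Fzd4, Lrp5, Nkd1 and Lef1, all within 0.1 of 0, changed sign without it.

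**Figure D4:**
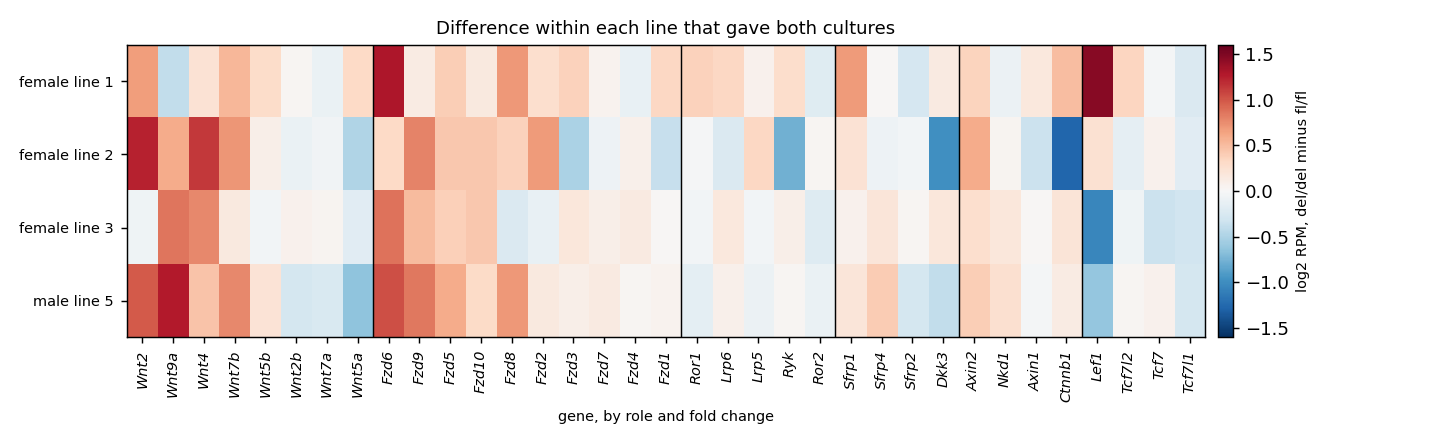
Heat map of the difference in log2 RPM (del/del minus fl/fl) for the 35 kept genes (columns, by role) in each of the 4 paired lines (rows), red where del/del is higher and blue where it is lower. Fzd5 lies between 0.38 and 0.59 in all 4 lines, Ctnnb1 is at -1.27 in line 2, whose fl/fl library is female fl/fl 2, and Lef1 lies on both sides of 0.

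By sex, 0 of 35 genes passed in females, where 0.0142% of all kept genes did. The difference of the effect between females and males was called for 0 of 35 and for 0 of 14044 genes. The male effect rests on 1 del/del library, and the fit gives it the spread of the other groups. The Fzd5 log2 fold change was 0.40 in females and 0.47 in males, that of Axin2 0.41 and 0.40, and that of Tcf7l1 -0.24 and -0.38. These 3 genes had the same sign in both sexes. They were, however, among the genes with an unadjusted p under 0.05 in the limma fit over both sexes. They also ran one way in every paired line, male line 5 included. Their shared sign was therefore largely set by that choice, and it was not compared with all kept genes. Fzd6, the other such gene, was at 0.83 in females and 0.93 in males. Wnt4 had 0.71 in females and -0.05 in males, with a limma BH-adjusted p of the difference of 1.00. That male value averages in male fl/fl 7 (2.03), and within male line 5 del/del was above fl/fl by 0.46.

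Other genes of the pathway were taken from lists by role. Of the 76 listed genes with a row, 61 were kept. In limma 0 of 61 passed and 8 had an unadjusted p under 0.05, against 1.55% and 9.84% of all kept genes. Groups did not overlap for 4 of 61 (6.56%, against 6.52% of all kept genes), with Daam2, Celsr3 and Bambi above and Lgr4 below. With the line as a block 4 of 61 passed, each higher in del/del, namely Daam2, Sulf1, Celsr3 and Apc2, against 3.99% of all kept genes. With the block and median centring 1 of 61 passed, Daam2, against 1.78% of all kept genes.

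Daam2, a formin that binds Dishevelled, was 4.65, 4.51 and 4.71 in female del/del lines and 4.58 in male del/del line 5. The fl/fl values were 3.87, 3.45 and 4.15 in female lines and 3.66 and 4.44 in male lines 5 and 7. Its groups did not overlap. The Daam2 log2 fold change was 0.72 (SE 0.185, limma BH-adjusted p = 0.115) and 0.83 with the line as a block (SE 0.118, adjusted p = 0.00849, or 0.0376 after centring as well). Sulf1, a sulfatase that edits heparan sulfate, was at 1.19 (adjusted p = 0.196, limma), and 1.06 with the block (adjusted p = 0.0282, or 0.0848 after centring as well). Celsr3, a planar cell polarity cadherin needed for axon tracts, was at 0.73 (limma BH-adjusted p = 0.263) and 0.84 with the block (adjusted p = 0.0427, or 0.161 after centring as well). Apc2, a neuronal relative of Apc, was at 0.52 (limma BH-adjusted p = 0.492) and 0.66 with the block (adjusted p = 0.0176, or 0.0939 after centring as well).

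By list, 2 of 2 Wnt secretion genes (Porcn and Wls), 3 of 9 R-spondin and Lgr genes, 8 of 13 other extracellular modulators, 17 of 17 destruction complex and Dishevelled genes, 12 of 12 nuclear cofactors and 12 of 12 planar cell polarity genes were kept, and 0 of each passed. Of the planar cell polarity genes 10 of 12 estimates were above 0, with a median log2 fold change of 0.08, and 7 to 10 of 12 were above 0 over the alternatives (8 with the line block). The largest of these 12 estimates, which include Daam2 and Celsr3, was 0.73, and it was 0.58 without female fl/fl 2. Of 14 kept canonical target genes, a list that includes Axin2, 0 passed and the median was 0.03. Cd44, one of these targets, was 5.98 to 6.15 in del/del and 5.45 to 6.11 in fl/fl, where the 6.11 is female fl/fl 2. Its log2 fold change was 0.38 (SE 0.147, limma BH-adjusted p = 0.375), and without that library the adjusted p was 0.0226. Lgr4, an R-spondin receptor, was 3.42 to 3.77 in del/del and 3.78 to 4.07 in fl/fl (log2 fold change -0.32, SE 0.109, limma BH-adjusted p = 0.271).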

How the data were processed

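RNA-seq of 9 libraries was analysed. The table holds log2 RPM per gene and library, computed and deposited by the authors; the tools listed are bcl2fastq, TopHat2 2.0.12 and edgeR 3.8.2, with the build mm10, per the submitters' processing notes. How reads were counted, and whether by strand, is not given in the sources used here. From the steps in the low values, nearly all values came out as whole reads within 0.05 reads (99.996% or more per library), a gene without a read being entered as 0.9 reads.

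The deposited values were fitted in limma 3.58.1 (R 4.3.3) with an intensity trend and sex as covariate, over the 14044 of 25965 genes at or above 0 log2 RPM in 3 or more libraries. P-values are two-sided and Benjamini-Hochberg adjusted over all of these, with a threshold of 0.05. Effects by sex came from a model of 4 group means. Levels per exon length used GENCODE vM21 exons inside each row's span.

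Line numbers pair 4 lines because each line was split, per the labels' protocols. Deviations of same-numbered female libraries correlated at 0.868, 0.582 and 0.758 in lines 1, 2 and 3 over genes, but del/del 2 with fl/fl 3 (0.728) and del/del 3 with fl/fl 2 (0.494) also correlated, so the pairing rests on the protocol. The line block, median centring, quantile normalization, voom, other filters, another pseudocount, no sex term, the 6 libraries with an RNA- prefix and leaving out each library were alternatives. Values are given in full for genes that passed, did not overlap or were among the 10 smallest p, and for the 2 highest per role by level per exon length. Among the other pathway genes the rule took the 2 smallest p per list. The values of Lef1 by library were chosen for printing after they were seen. The genes and lists were chosen with earlier results of these data known.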

Additional observations from a re-analysis of the deposited data

Results flagged for a closer look

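In 6 of 68 groups of 4 or 5 libraries tested, 1 library lay far from the others by Dixon's ratio, and chance alone flags about 3.4. Female fl/fl 2 was the library in 3 of them. Its log2 RPM was 5.66 for Fzd1 (5.15 to 5.30 in the other fl/fl libraries), 7.995 for Ctnnb1 (6.59 to 6.73) and 5.87 for Fzd3 (5.25 to 5.32). The other 3 concern del/del libraries. Celsr3 was 2.45 in female del/del 1 (2.22 to 2.24 in the other del/del libraries), Dact2, a Dishevelled-binding protein, was 0.81 in female del/del 1 (1.49 to 1.61) and Bambi, a membrane pseudoreceptor, was 1.99 in female del/del 3 (1.70 to 1.74). Groups of 4 and 5 libraries were tested, so a flag depends on few values, and the part of depth or library quality in these values was not tested.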

How the results depend on the processing

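None of the 35 genes passed under the 19 alternatives for both sexes. The smallest adjusted p was 0.0507, for Fzd5 with the replicate block. The count of all genes higher in del/del was 203, and it was 529 with the replicate block, 226 with the block and median centring, 86 with quantile normalization (beside 18 lower) and 2 to 243 when 1 library was left out. The 2 came without male del/del 5, which leaves both genotypes in females only, so that this fit gives the female effect. Leaving out any other del/del library, female fl/fl 3 or male fl/fl 5 moved the count by over 1.5 times (50 to 126). The count of lower genes was 14, and it was 32 with the replicate block, 24 with the block and median centring, 6 in the libraries with an RNA- prefix and 0 to 15 when 1 library was left out. Other pathway genes that were higher numbered 0, and 4 with the replicate block, 1 with the block and median centring, with quantile normalization, with voom and in the RNA- prefix libraries, and 0 to 1 when 1 library was left out. In females 2 genes were higher, and 262 with the replicate block, 0 with median centring and 0 to 6 when 1 library was left out; 0 were lower, and 13 with the replicate block, 1 with median centring, quantile normalization or voom, and 0 to 1 when 1 library was left out. The replicate block added 4 pathway genes, Daam2, Sulf1, Celsr3 and Apc2, and changed the call of no Wnt gene among the 35. The cause of these shifts was not tested.

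Estimates close to 0 changed sign. Fzd1 (-0.01) was 0.0074 with the replicate block, 0.0070 with quantile normalization, 0.0139 without the sex term and -0.0776 to 0.0741 when 1 library was left out. Fzd3 (0.03) was -0.0754 in the RNA- prefix libraries. Over the leave-outs it ran from -0.0377 to 0.160, Lrp6 from -0.0041 to 0.107, Ryk from -0.209 to 0.0368, Ctnnb1 from -0.260 to 0.189, Tcf7 from -0.203 to 0.0015 and the Wnt secretion gene Wls from -0.219 to 0.109. Cd44 passed with quantile normalization (adjusted p = 0.0316), voom (0.0237) and without female fl/fl 2 (0.0226), and Dact2 in the RNA- prefix libraries (0.0463). Leaving out female fl/fl 2 moved the median of all genes to 0.08. The difference between the sexes without male del/del 5 could not be fitted. For Wnt3a, Wnt8a and Dkk4, with 0 reads in del/del, the depth allows a level of up to 0.0079 RPM.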
